A study of Rattus norvegicus with 3 samples.

Results

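The genes described here encode 6 enzymes of cholesterol synthesis (Hmgcs1, Fdft1, Sqle, Cyp51, Hsd17b7 and Dhcr7) and a pair of proteins that control the pathway (Srebf2 and Insig1). They were taken as a named set of 8 genes, chosen with earlier results of these data known. Every probe carrying a RefSeq accession of these genes was used. All 8 were found, on 13 probes, among 8899 named genes and 41012 probes in all. RNA came from the vestibular nuclei, brainstem nuclei fed by the balance organ of the inner ear. The rats were adult males of the Sprague-Dawley strain with body weights of 200 to 250 g. The sham group is the control, the day 1 group was taken 1 day and the day 7 group 7 days after surgical removal of the left labyrinth, and both of these were sampled on the operated side. The sample labels call the control sham-operated whereas the protocol text calls its rats normal, and the sources used here give neither the age of the rats nor the side sampled in controls. The labels name 3 rats per group, which appear to have been pooled, and each group has 1 array, so no spread between animals was measured and no test of a condition was possible.

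Cholesterol is built from acetyl-CoA through mevalonate to squalene, which is closed to lanosterol and then trimmed stepwise to cholesterol. The transcription factor SREBP2, the product of Srebf2, switches on nearly every enzyme gene of this route when sterols in the endoplasmic reticulum run low, and INSIG proteins hold it back when sterols are plentiful. Because cholesterol hardly crosses the blood-brain barrier, the brain makes its own, with oligodendrocytes using it for myelin and astrocytes supplying neurons.

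Levels are given as the log2 of the scanner's processed intensity minus the log2 of the 75th percentile of the same array, and a difference of 2 levels is a log2 fold. Of 12 neuronal marker genes 11 had a probe. The brightest probe was well above background for all 11 in sham and at day 7 and for 10 at day 1, where that of Gad1 was not. Sham had 81.3% of spots well above background, day 1 had 77.3% and day 7 had 76.9%. The error given with a fold is the scanner software's own error of the 2 spots and covers neither animals nor labelling. It was 0.20 to 0.30 log2 for the measured probes of the 8 genes. Probes against the same gene disagreed more widely. The log2 folds of the 2 brightest measured probes of a gene differed by a median of 0.34 for day 1 against sham (1139 genes), 0.41 for day 7 against sham (1121 genes) and 0.37 between the operated groups (1082 genes). The 90th percentile of this difference was 1.29, 1.41 and 1.32 in the same order. The 2 probes had the same sign in 60.7%, 63.9% and 60.6% of these genes. Signs and folds of genes with a single probe are to be read with this limit.

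A probe was counted as measured in a comparison when neither array flagged it as saturated and both as well above background, which held for 10 of the 13 probes in each comparison. The 3 others were a saturated probe of Hmgcs1, a saturated probe of Insig1 and a dim second probe of Srebf2. A gene was counted by its brightest probe over the 3 arrays. By this rule 6 of the 8 genes were measured, since the brightest probes of Hmgcs1 and Insig1 were saturated on every array, and these 2 genes are described by their other probes.

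**Figure D1:**
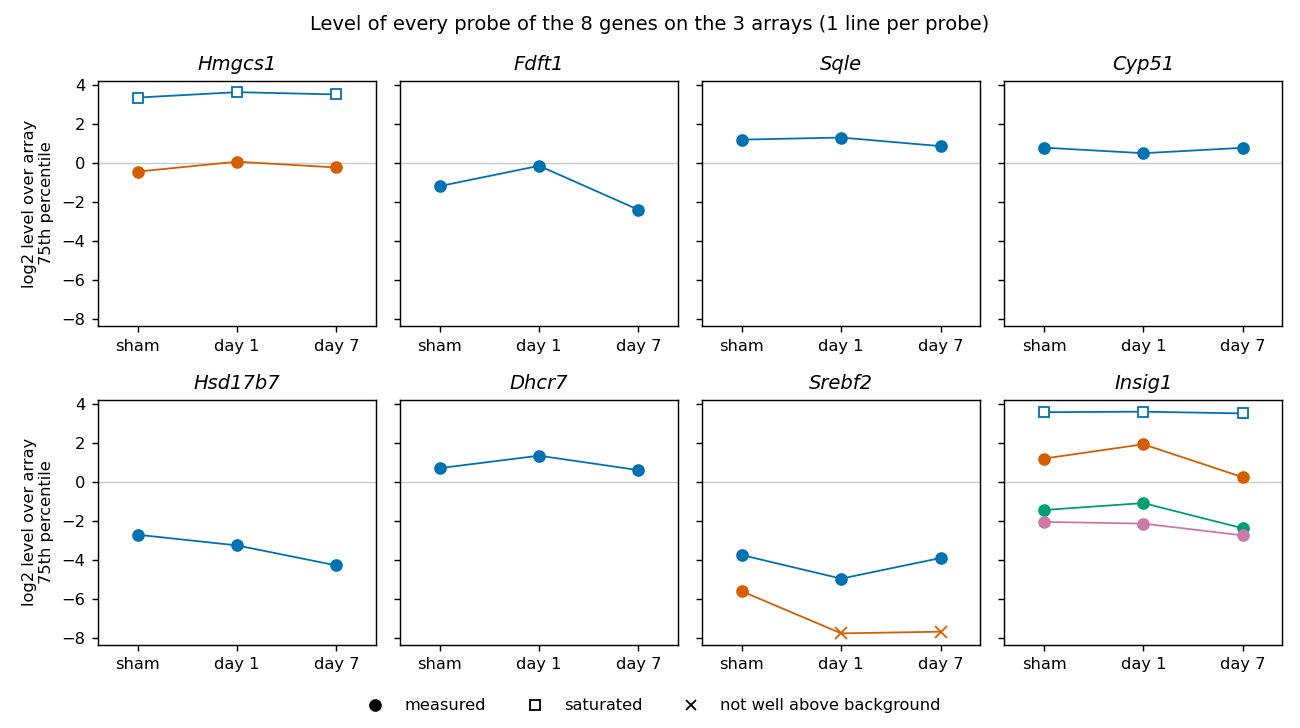
Log2 level of every probe of the 8 genes (vertical axis, relative to the array's 75th percentile) in sham, at day 1 and at day 7, with 1 line per probe and 1 array per group. Filled circles are measured values, open squares saturated ones and crosses values not well above background. Fdft1 lies at -1.17 in sham, -0.13 at day 1 and -2.38 at day 7, and the flat open squares of Hmgcs1 and Insig1 mark probes that could not register a change.

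At day 1 after labyrinthectomy the 8 genes did not share a direction. Fdft1, squalene synthase, was at least 2-fold higher than in sham, Srebf2 was at least 2-fold lower, and the other 4 of the 6 counted genes lay within 2-fold. That is 1 gene in each direction, where 8.26% of 6292 measured genes were higher by that much and 4.37% lower. The median log2 fold of the 6 was -0.09, beside 0.0011 for all measured genes. By the brightest unsaturated probe all 8 genes could be counted, and the median was then 0.31, so the sign of the median at day 1 depended on the probes used.

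At day 7 against sham, Hsd17b7 and Fdft1 were at least 2-fold lower, and no counted gene was 2-fold higher. These are 2 of 6 genes, where 5.73% of 6261 measured genes were lower by that much and 11.1% higher. Since the set was chosen with earlier results of these data known, the larger share is no evidence of enrichment. All 6 had log2 folds below 0, with a median of -0.24 beside 0.05 for all measured genes, but Cyp51 (-0.0096) turned positive under 4 of 13 alternative settings and Dhcr7 (-0.10) under 1. Of all 6261 measured genes 2924 were below 0. Of the 10 measured probes of the set 9 were below 0, Hmgcs1 being the exception at 0.21. Less RNA per cell and fewer cells that carry it cannot be told apart in such bulk tissue.

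Day 7 against day 1, a comparison without the sham array, gave the widest spread of the 3. Fdft1 and Hsd17b7 were at least 2-fold lower at day 7 and Srebf2 was at least 2-fold higher, with background shares of 5.32% lower and 6.56% higher among 6142 measured genes. The median of the 6 was -0.59, beside 0.04 for all measured genes. Over all 10 measured probes 8 were below 0, with 4 of them at least 2-fold lower, and the values ran from -2.25 to 1.06. The comparisons of day 1 and of day 7 with sham use the same sham array, so an error on that array enters both.

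**Figure D2:**
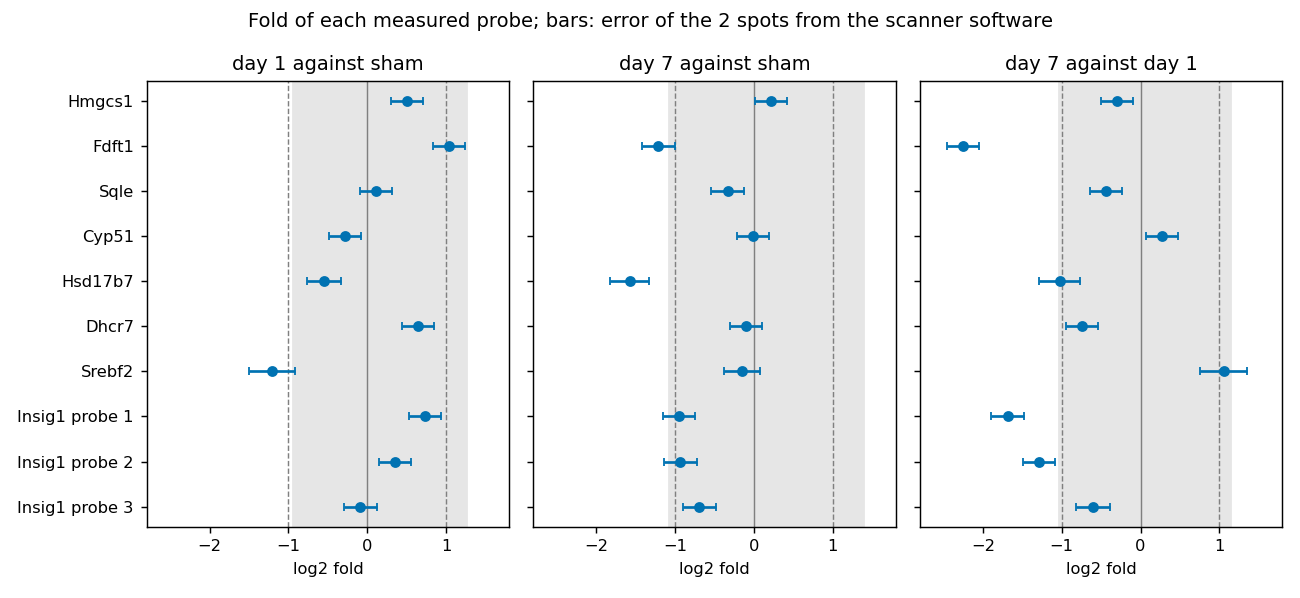
Log2 folds (horizontal axis) of the 10 measured probes of the 8 genes in each comparison. Bars show the scanner software's error of the 2 spots, the grey band spans the 5th to 95th percentile of all measured genes, and dashed lines mark 2-fold. Fdft1 (-2.25) and both brighter measured probes of Insig1 (-1.69 and -1.29) lie below the band for day 7 against day 1, and Hsd17b7 (-1.57) and Fdft1 (-1.21) lie below it for day 7 against sham.

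The first member on the route is Hmgcs1, the cytosolic HMG-CoA synthase of the mevalonate route. Its brightest probe gave intensities of 58639 in sham, 65436 at day 1 and 65351 at day 7, all saturated, so no fold can be read from it. The other probe gave log2 levels of -0.43 in sham, 0.08 at day 1 and -0.22 at day 7. Day 1 was higher than sham by 0.51 ± 0.20 log2. Day 7 differed from sham by 0.21 ± 0.20, about the size of the spot error.

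Fdft1 joins a pair of farnesyl diphosphate molecules into squalene, the first step committed to sterols. Its single probe, on 1 spot per array, had intensities of 2528 in sham, 4789 at day 1 and 1088 at day 7. It was thus high at day 1 and low at day 7, with sham between them. Relative to sham, the log2 fold was 1.04 ± 0.20 at day 1 (2.06-fold higher) and -1.21 ± 0.21 at day 7 (2.32-fold lower). Day 7 over day 1 was -2.25 ± 0.21 (4.76-fold lower), and 82 of 6142 measured genes were as low or lower. The value at day 1 lay just past 2-fold. It was below 2-fold, at 0.85 in the lowest case, under 3 of 13 alternative settings (no scaling, scaling to the median and normexp), while both day 7 differences were past 2-fold under all 13.

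Sqle, squalene epoxidase, adds the oxygen that allows squalene to close into a ring and is a control point of the later route. Its levels were 1.21 in sham, 1.32 at day 1 and 0.88 at day 7, which are close to each other. The log2 fold was 0.11 at day 1 against sham, inside its spot error of 0.20 and below 0 without scaling between arrays, and -0.33 at day 7 against sham.

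Cyp51, lanosterol 14-alpha-demethylase, had levels of 0.80 in sham, 0.51 at day 1 and 0.79 at day 7. Its log2 fold was -0.29 at day 1 against sham, and day 7 differed from sham by less than the spot error. Among the 6 enzyme genes it was the only one whose level was higher at day 7 than at day 1 (0.28), and its own value stayed above 0 under all 13 alternatives.

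Hsd17b7 encodes the 3-ketosteroid reductase that completes the removal of methyl groups at carbon 4 of the sterol. The probe had intensities of 868 in sham, 547 at day 1 and 291 at day 7. It was lower at day 1 than in sham, and lower again at day 7. Relative to sham, the log2 fold was -0.55 ± 0.21 at day 1 and -1.57 ± 0.25 at day 7 (2.98-fold lower). Of 6261 measured genes, 144 (2.30%) were as low or lower at day 7 against sham. The day 7 value ranged from -1.73 to -1.23 over 12 alternatives, all past 2-fold. Against day 1 it was -1.03, and 9 of 12 alternatives stayed past 2-fold. The remaining alternative keeps only brighter probes and leaves Hsd17b7 out of every comparison, since its signal is dim.

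Dhcr7, 7-dehydrocholesterol reductase, carries out the last step to cholesterol in the Kandutsch-Russell branch. Its levels were 0.70 in sham, 1.34 at day 1 and 0.60 at day 7. Day 1 thus stood above both other arrays. Day 1 exceeded sham by a log2 fold of 0.64 ± 0.20, and day 7 over day 1 was -0.74 ± 0.20.

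Of the regulators, Srebf2 was dim. Its brighter probe had intensities of 422 in sham, 168 at day 1 and 378 at day 7, so day 1 stood apart and day 7 was near sham. Relative to sham, the log2 fold was -1.21 ± 0.29 at day 1 (2.31-fold lower) and -0.15 ± 0.23 at day 7. Day 7 over day 1 was 1.06 ± 0.30 (2.08-fold higher). At 168, day 1 was close to 109, the lowest signal well above background on that array, and with the normexp background correction the day 1 value was -0.78 and no longer past 2-fold. A second Srebf2 probe was well above background in sham alone, at 116, and gives no usable bound at either day.

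Insig1 encodes the membrane protein that retains the SREBP complex in the endoplasmic reticulum, and it is itself a target of SREBP. Its brightest probe was saturated, with intensities of 67380 in sham, 63105 at day 1 and 64305 at day 7. The next probe (A_44_P143886) had intensities of 12967 in sham, 19828 at day 1 and 6670 at day 7. Probe A_44_P406074 gave 2088, 2457 and 1089 in the same order, and probe A_44_P547168 gave 1369, 1185 and 846. On each of the 3 unsaturated probes day 7 was the lowest array, while at day 1 the probes disagreed about the direction. Against sham, the log2 folds at day 7 were -0.95, -0.93 and -0.69, with a mean of -0.86 (SD 0.15 over the 3 probes, which share the same RNA and are not replicates). None reached 2-fold here, but under other scalings A_44_P143886 did in 2 of 7 and A_44_P406074 in 4 of 7. At day 1 against sham they were 0.73, 0.35 and -0.09, and at day 7 against day 1 -1.69, -1.29 and -0.60.

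Promoter sequences of the genes were taken from RefSeq on the GRCr8 assembly, which holds 6 of the 8 (all but Fdft1 and Sqle), as windows of 250 bases before to 50 after the start. SREBP2 works together with NF-Y and Sp1 on sterol-regulated promoters. Motifs were searched on both strands as TCACNCCAC for the sterol regulatory element, CCAAT for NF-Y and GGGCGG for Sp1, and none of these can be part of another. CCAAT stood in 4 of 6 windows (Hmgcs1, Hsd17b7, Insig1 and Srebf2, and neither Cyp51 nor Dhcr7), beside 37.5% of 33469 promoters in all. It also stood in 12 of 13 windows of the other enzyme genes of the route, Acat2 lacking it. GGGCGG stood in all 6 windows, in 10 of 13 windows of the other enzyme genes and in 33.1% of all promoters. TCACNCCAC stood in none of the 6, in 0 of the 13 and in 1.12% of all promoters. The lack of this exact string does not show that a window lacks a sterol regulatory element. The 250 bases before the start are shown for Hsd17b7 and Insig1, which were low at day 7, and for Hmgcs1, which was not, with CCAAT in capitals where it occurs on either strand (ATTGG is the same box read on the other strand).
Hsd17b7, chr13:84722755-84723004, minus strand: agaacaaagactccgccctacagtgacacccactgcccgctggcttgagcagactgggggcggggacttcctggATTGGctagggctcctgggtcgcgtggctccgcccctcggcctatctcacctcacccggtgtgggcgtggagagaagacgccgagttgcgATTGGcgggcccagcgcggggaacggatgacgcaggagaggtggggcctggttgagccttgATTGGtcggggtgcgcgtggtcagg
Insig1, chr4:8057770-8058019, minus strand: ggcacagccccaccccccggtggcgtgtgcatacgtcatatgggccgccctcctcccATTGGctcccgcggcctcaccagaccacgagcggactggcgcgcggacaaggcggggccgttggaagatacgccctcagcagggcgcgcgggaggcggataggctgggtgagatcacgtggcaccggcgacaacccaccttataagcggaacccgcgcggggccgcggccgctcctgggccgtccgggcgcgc
Hmgcs1, chr2:53382054-53382303, plus strand: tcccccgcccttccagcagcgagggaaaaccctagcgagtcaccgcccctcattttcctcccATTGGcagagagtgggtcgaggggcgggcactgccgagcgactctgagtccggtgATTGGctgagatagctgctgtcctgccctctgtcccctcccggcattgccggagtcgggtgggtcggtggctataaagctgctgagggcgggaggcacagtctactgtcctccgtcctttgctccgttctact
The boxes start 176, 86 and 25 bases before the start in Hsd17b7, 193 bases in Insig1, and 188 and 133 bases in Hmgcs1. A match describes these letters only, and genes with the box lay on both sides of 0 at day 7.

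Of the 16 other enzymes listed, 14 had a probe, and at day 1 and day 7 against sham 12 were measured by their brightest probe, all within 2-fold. Their median log2 fold was 0.23 at day 1 and -0.31 at day 7, with 7 of 12 above 0 at day 1 and 8 of 12 below 0 at day 7. With the 8 genes included, 18 were measured, and 14 of them were below 0 at day 7 against sham, with a median of -0.30. Of all 6261 genes measured at day 7 against sham, 2924 were below 0. At day 7 against day 1 the 20 measured genes had a median of -0.34, and 15 were below 0. Of all 6142 measured genes in that comparison, 2847 were below 0.

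Values of single enzymes follow as log2 folds against sham, at day 1 and then at day 7. Idi1, isopentenyl diphosphate isomerase, was at 0.57 and 0.21 by its 2 probes at day 1 against sham and at -0.36 and -0.90 at day 7 against sham. Fdps, farnesyl diphosphate synthase, was at -0.34 and -0.48 at day 1 and -0.75 and -0.70 at day 7, with both probes below sham at both times. Lss, which closes the sterol ring, was at 0.78 and 0.52. Sc5d, a late desaturase, was at -0.42 and -0.72. Msmo1, a sterol 4-methyl oxidase, was saturated in sham and gives only day 7 against day 1 (-0.12).

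**Figure D3:**
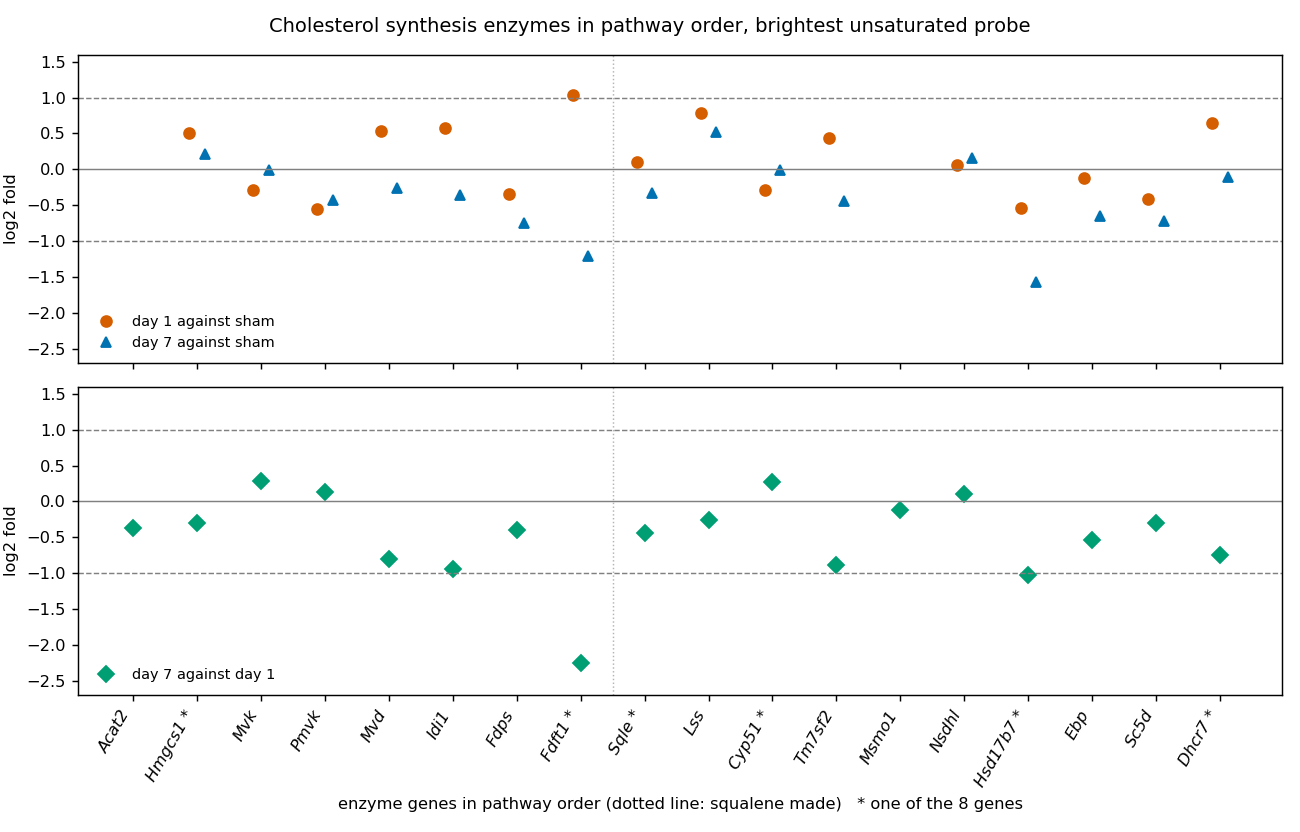
Log2 fold (vertical axis) of 18 enzyme genes in pathway order, each by its brightest unsaturated probe, at day 1 (circles) and day 7 (triangles) against sham in the upper panel and at day 7 against day 1 (diamonds) in the lower. Acat2 and Msmo1 have no value against sham because their probes are saturated there. In the lower panel 14 of 18 genes lie below 0, with Fdft1 (-2.25) and Hsd17b7 (-1.03) past the dashed 2-fold line.

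Along the route, the median at day 7 against sham was -0.36 over the 7 genes shown and measured for the steps up to squalene and -0.33 over the 9 after it. At day 1 the medians were 0.51 up to squalene and 0.06 after it. At day 7 against day 1 they were -0.39 over 8 genes and -0.37 over 10, with 6 and 8 genes below 0.

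Among other genes that control synthesis, Insig2, the second INSIG protein, had probes at 0.24 and -0.09 at day 1 and at -0.31 and 0.16 at day 7 against sham, so no direction can be given. Mbtps2, the site-2 protease that frees SREBP from the membrane, was 2.39-fold higher at day 7 than in sham, with intensities of 179 in sham, 84.3 at day 1 and 426 at day 7, but at day 1 it was not well above background. Scap and Srebf1 had no probe that could be named and were not analysed here. The list of 11 had 5 genes with a probe, and Mbtps2 was the only 1 of 5 measured at day 7 past 2-fold.

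Uptake and export genes were mostly within 2-fold. Npc2, which moves cholesterol out of lysosomes, was 2.04-fold lower at day 1 against sham, and at day 7 its log2 fold was -0.73. By brightest probe it was the only 1 of 5 measured uptake and transport genes past 2-fold at either time. A dimmer Scarb1 probe was 2.37-fold higher at day 1 than in sham, while the brightest Scarb1 probe was at 0.16. Cyp27a1, which makes 27-hydroxycholesterol, was 2.29-fold higher at day 1 than in sham, with intensities of 327 in sham, 688 at day 1 and 279 at day 7. Nr1h3, the sterol sensor LXR alpha, was 2.07-fold higher at day 7 than in sham. Each was the only 1 of 8 measured export and oxysterol genes past 2-fold at its time. Abca1, a cholesterol exporter and LXR target, had intensities of 33.6 in sham, 258 at day 1 and 78.7 at day 7. It was well above background at day 1 alone, there at least 4.18-fold higher than in sham. The bound uses, for sham, the dimmest signal on that array that passed the background flag. Apoe, the main lipid carrier of the brain, was at 0.54 at day 1 and -0.08 at day 7. Cyp46a1 was not analysed here. Of the fatty acid synthesis genes that SREBP also controls, Fads1, a desaturase of polyunsaturated fatty acids, was 2.66-fold lower at day 7 than in sham and was the only 1 of 7 measured past 2-fold.

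Markers of the main brain cell types also differed between arrays. The summed level of 12 oligodendrocyte marker genes, in multiples of the array's 75th percentile, reached 34.3 in sham, 29.9 at day 1 and 24.7 at day 7, and 2 of 12 were at least 2-fold lower at day 7 against sham, with a median of -0.35. All 12 were well above background on every array. That of 9 neuronal markers was 34.1, 30.9 and 25.1 in the same order, and that of 8 astrocyte markers 13.2, 13.2 and 12.7. For 4 microglial markers it was 3.91, 2.39 and 5.10, and for 3 choroid plexus markers 0.684, 0.512 and 1.23, with Clic6 and Kl not well above background on any array. Of the 12 oligodendrocyte markers 11 were below 0 at day 7 against sham and 1 was above, beside 2924 of 6261 measured genes below 0. Single markers of the neuronal and astrocyte lists did not move together. At day 7 against sham 4 of 10 measured neuronal markers were at least 2-fold lower, beside 5.73% of all measured genes. They were Nefl (3.04-fold), Nefm (2.25-fold), Nefh (4.92-fold) and Slc6a5 (38.3-fold). Gad1, which is not in the sum, was 10.5-fold higher by its brightest probe, and 4 of the 10 were above 0. Another Gad1 probe was 3.00-fold higher, and its dimmest probe was not well above background at day 7. Of 8 astrocyte markers 2 were at least 2-fold higher (Aqp4 and S100b) and 0 lower, with 4 above 0 and 4 below. The sums are therefore not counts of cells. The 6 counted genes of the set summed to 6.35 in sham, 7.50 at day 1 and 5.39 at day 7. The part of these marker shifts in the day 7 values was not tested.

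**Figure D4:**
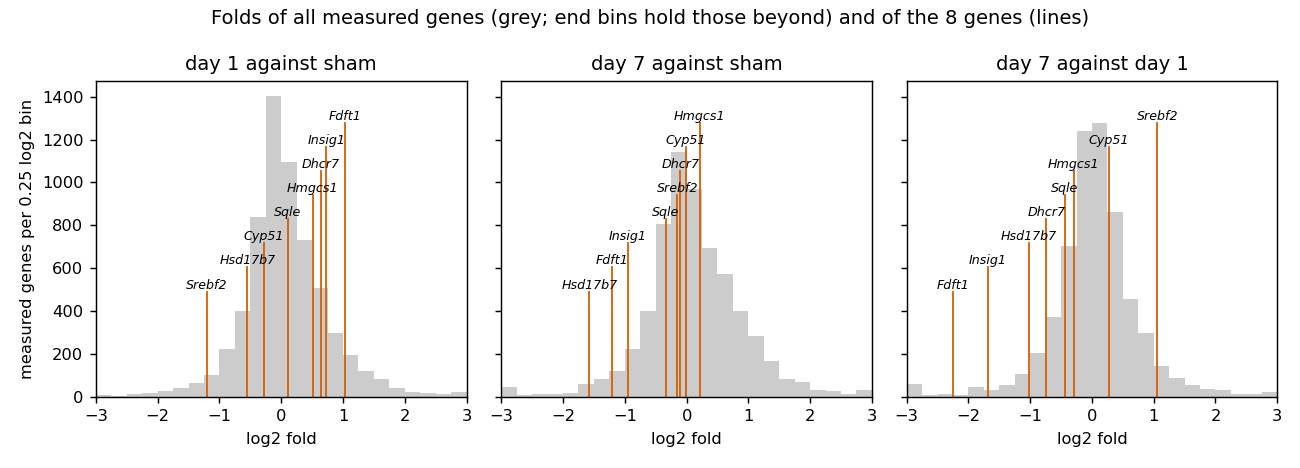
Number of measured genes (vertical axis) per bin of log2 fold (horizontal axis) in each comparison, in grey, with the 8 genes as labelled lines by their brightest unsaturated probe. At day 7 against sham 7 of the 8 lines lie below 0, and at day 1 against sham 5 of 8 lie above 0.

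By closeness of their pair of log2 folds against sham to the median of the 6 counted genes (-0.09 at day 1 and -0.24 at day 7), the nearest of 35 candidate lipid genes were Elovl6, Soat1, Lipa, Abcg1 and Scarb1. Their distances ran from 0.05 to 0.28 log2. This likeness rests on 3 arrays and on a median that hides members as far apart as Fdft1 and Srebf2.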

How the data were processed

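Gene expression was measured on 3 one-colour Agilent rat arrays, 1 per group, all on 1 slide, so slide position and group cannot be told apart. The deposited files give, per the file headers, intensities after background subtraction by Feature Extraction 10.7.3.1, with the software's error per spot and flags (0 or 1) for saturation, outliers and signal above background, and the array design refers to build rn4. The authors' deposited series table holds the same intensity values, unscaled, equal within 0.1% for over 99% of probes, with column medians of 1596 in sham, 1544 at day 1 and 1688 at day 7. Here, log2 intensity minus the array's 75th percentile (5692 in sham, 5242 at day 1, 5676 at day 7) was used, without outlier spots. Probes were named by RefSeq accession in a GRCr8 gene table (10768 of 41012 probes, 8899 genes). A gene was called at 2-fold, without a test. The genes named besides the 8 are lipid genes past 2-fold against sham at either time and 14 preset ones, some of which are not reported here, with the 5 closest in pattern. Members and lists were chosen with earlier results of these data known. Alternatives (12 planned, 1 added after the data were seen) were other scalings, background, probe and filter choices, computed with limma 3.58.1 and Python 3.11.15. The normexp correction used the median spot signal, where the mean had been planned, with an offset of 50. The code that counts genes past 2-fold was checked on simulated arrays, which is no test of a condition.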

Additional observations from a re-analysis of the deposited data

Results flagged for a closer look

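A few probes stood on opposite sides of sham at day 1 and day 7, by more than their spot error each time. The sham array is shared, the difference between the days was not tested, and each day has 1 array. The difference of the log2 folds, day 7 minus day 1, was -2.25 for Fdft1 and -1.69 and -1.29 for a pair of Insig1 probes, while the dimmest Insig1 probe was below sham at both times. It was -0.94 and -1.11 for the 2 Idi1 probes. For Insig2 it was -0.55 by the brighter probe, and the other probe had the opposite order.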

How the results depend on the processing

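No paired analysis was possible because each group has 1 array. Medians of the counted genes kept their sign for day 7 relative to sham (-0.37 to -0.11) and relative to day 1 (-0.62 to -0.48) under all 13 alternatives. At day 1 against sham the median was 0.37 with only brighter probes (0.41 for the whole pathway list), 0.22 with the mean over probes, 0.23 with the second brightest probe and 0.31 with the brightest unsaturated probe, the last chosen after seeing the data. The pathway median at day 1 was -0.04 without scaling and -0.02 with scaling to the median. The count at least 2-fold higher at day 1 was 0 without scaling, with scaling to the median and with normexp, and the count lower was 0 with normexp and with brighter probes. At day 7 against sham the count lower was 1 with brighter probes. At day 7 against day 1 the count lower was 1 without scaling, with the percentile over probes detected everywhere, with normexp and with brighter probes, and the count higher was 0 with normexp and with brighter probes. The cause of these moves was not tested, apart from the brighter-probe filter, which leaves 4 of the 6 genes.

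Over all genes, the counts higher and lower were 520 and 275 at day 1 against sham (933 and 636 without a filter on dim probes, 177 and 116 with brighter probes), 698 and 359 at day 7 against sham (1265 and 718, 195 and 192) and 403 and 327 at day 7 against day 1 (868 and 703, 149 and 164). The share of higher among called genes was 65.4% at day 1 (53.6% unscaled, 55.4% with scaling to the median), 66.0% at day 7 (55.1% with cyclic loess, 54.2% with the median) and 55.2% between the days (66.0% unscaled). Unscaled, the all-gene median was -0.12 for day 1 against sham and 0.15 between the days. Dim signal limits, among others, Srebf2, Hsd17b7, Mbtps2, Cyp27a1 and Abca1, and saturation limits Hmgcs1, Insig1, Acat2 and Msmo1.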
